A study of Mus musculus with 12 samples.

Results

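The enzymes that make, phosphorylate and break down sphingosine were read in RNA of colonic crypts through 10 genes, Sphk1, Sphk2, Sgpl1, Sgpp1, Sgpp2, Asah1, Asah2, Cers2, Cers6 and Smpd1, out of 55471 genes listed. The 10 genes were found by their symbols. They were chosen by their place in ceramide and sphingosine 1-phosphate metabolism and by 1 measured value, a rise of Sphk1 with p53 deletion in crypts with wild-type CBP, so that this rise is given as a description and supports nothing. RNA came from crypts released with 30 mM EDTA from the colon of female 8-week-old mice, with 1 library per mouse and 3 mice in each of 4 groups. CBPWTp53-floxed mice carried wild-type CBP and floxed p53 alleles without Cre. CBPAAp53-floxed mice carried the same floxed p53 alleles and, in place of wild-type CBP, a knock-in form on both alleles of Crebbp. In this form, phosphorylated serines of CBP are alanines in every cell. CBPWTp53ΔIEC and CBPAAp53ΔIEC mice were the matching mice in which Villin-Cre deletes Trp53 in intestinal epithelial cells. Cells of a crypt preparation other than epithelium keep Trp53 in the latter groups. The labels give the 4 genotypes as WT, AA, Vil_p53KO_WT and Vil_p53KO_AA on C57BL/6J, and the floxed alleles, sex and age are those of the methods of the study. The CBPAA allele was made in embryonic stem cells and the mice were backcrossed to C57BL/6.

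Sphingosine is released from ceramide by ceramidases and is either built back into ceramide by ceramide synthases or phosphorylated by the sphingosine kinases SPHK1 and SPHK2. The product, sphingosine 1-phosphate (S1P), acts inside cells and, after export, on a family of G protein-coupled receptors, while S1P phosphatases turn it back into sphingosine and S1P lyase breaks it down for good. Ceramide is known for its links to growth arrest and cell death and S1P for its links to proliferation and survival. In the gut, the neutral ceramidase ASAH2 of the brush border also digests sphingolipids of the diet.

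The p53 part of the group labels was checked with the deleted gene, and the CBP part was not, since the CBPAA allele changes codons and Crebbp levels overlapped between the groups. Trp53 lay between 23.3 and 33.5 TPM (a transcript level scaled to gene length and to the same sum in every library) in the 6 p53-floxed libraries and between 3.26 and 6.13 TPM in the 6 p53ΔIEC libraries. The total count on genes ranged from 11177430 to 18029125 per library. Markers of colonic epithelium, 6 in all, summed to 14510 to 28720 TPM in every library, and those of stroma (8 genes), endothelium (6) and leukocytes (7) to at most 8.33, 1.85 and 5.60 TPM. Of these, 6, 4 and 3 genes had no more than 10 reads in any library. The 10 markers of small intestine summed to 688 to 6237 TPM. In 4 libraries, the sum of the Paneth cell genes Lyz1, Defa24 and Defa30, which the colon lacks, was above 100 TPM. It was 793 TPM in CBPAAp53-floxed replicate 2, 14720 TPM in CBPWTp53ΔIEC replicate 1, and 1968 and 3659 TPM in CBPAAp53ΔIEC replicates 1 and 3. In the other 8 libraries it was at most 39.3 TPM. Of the other Paneth cell markers, Mmp7 was also highest in these 4 libraries, at 15.3 to 141 TPM against at most 12.8 TPM elsewhere. Itln1 and Ang4 did not follow. CBPAAp53-floxed replicate 3, which is not among the 4, had 222 TPM of Itln1, above CBPAAp53-floxed replicate 2 and CBPAAp53ΔIEC replicate 1. It also had the most Ang4 of all libraries, 11780 TPM. The same 4 libraries were also the highest for Fabp6, Apoa1, Sis and Mttp of the small-intestinal markers. Fabp6 had 217, 1629, 453 and 500 TPM in them, in the order above, against at most 20.1 TPM elsewhere. For Apoa4 the order was the same only by a margin near the floor. CBPAAp53ΔIEC replicate 1 had 4 Apoa4 reads and CBPWTp53-floxed replicate 1 had 3. For Apob, Alpi, Lct, Fabp2 and Enpp7 the ranges overlapped. The 4 libraries are named below by their Paneth cell transcripts, although other small-intestinal transcripts came with them. Fold changes are of all 12 libraries unless they are said to be without these 4.

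The promoters of the kinase genes and of Asah2 are shown because these genes hold the lowest levels among the 10, Sphk1 and Asah2, beside the kinase that carries nearly all kinase transcripts, Sphk2. The sequences are those of RefSeq on GRCm38.p6, from 250 bases before to 50 bases after an annotated start, and 9 of the 10 genes had at least 1. Capitals mark 4 motifs, searched on both strands. The TATA box was read as TATAAA, the GC box as GGGCGG, the AP-1 site as TGAGTCA and the E-box as CACGTG. No match overlapped one of another motif in these promoters, and a match is only a run of letters. Sphk1 has 5 annotated starts on the plus strand of chromosome 11, of which the upstream one (chr11:116530850-116531149), start 2 (chr11:116531587-116531886) and start 4 (chr11:116532194-116532493) are printed, while the windows of the other two overlap a printed one. For Sphk2 the upstream start on the minus strand (chr7:45717953-45718252) and for Asah2 the only start (chr19:32103091-32103390, minus strand) are printed.
Sphk1 upstream start: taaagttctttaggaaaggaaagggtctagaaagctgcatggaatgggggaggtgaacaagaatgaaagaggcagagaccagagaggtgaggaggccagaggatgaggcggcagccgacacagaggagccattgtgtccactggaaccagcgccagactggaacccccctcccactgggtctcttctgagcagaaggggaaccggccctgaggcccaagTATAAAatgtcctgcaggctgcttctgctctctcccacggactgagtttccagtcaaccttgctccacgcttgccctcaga
Sphk1 start 2: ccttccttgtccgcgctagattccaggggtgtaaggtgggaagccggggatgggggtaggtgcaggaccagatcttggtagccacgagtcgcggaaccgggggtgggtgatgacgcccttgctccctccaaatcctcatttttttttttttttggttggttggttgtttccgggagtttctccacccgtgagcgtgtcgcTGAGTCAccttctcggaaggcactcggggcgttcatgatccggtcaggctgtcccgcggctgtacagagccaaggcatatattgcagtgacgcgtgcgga
Sphk1 start 4: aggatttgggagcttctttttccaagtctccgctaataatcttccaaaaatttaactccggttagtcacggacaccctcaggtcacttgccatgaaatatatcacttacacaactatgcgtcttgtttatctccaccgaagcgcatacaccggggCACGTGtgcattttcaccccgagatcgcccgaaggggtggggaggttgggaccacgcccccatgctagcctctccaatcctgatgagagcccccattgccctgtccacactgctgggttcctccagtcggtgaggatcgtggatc
Sphk2 upstream start: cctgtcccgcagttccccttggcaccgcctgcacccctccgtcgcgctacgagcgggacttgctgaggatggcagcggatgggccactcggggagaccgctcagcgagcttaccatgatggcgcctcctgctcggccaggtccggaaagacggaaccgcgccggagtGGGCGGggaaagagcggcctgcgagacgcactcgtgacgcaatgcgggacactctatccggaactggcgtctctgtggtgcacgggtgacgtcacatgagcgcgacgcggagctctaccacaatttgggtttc
Asah2: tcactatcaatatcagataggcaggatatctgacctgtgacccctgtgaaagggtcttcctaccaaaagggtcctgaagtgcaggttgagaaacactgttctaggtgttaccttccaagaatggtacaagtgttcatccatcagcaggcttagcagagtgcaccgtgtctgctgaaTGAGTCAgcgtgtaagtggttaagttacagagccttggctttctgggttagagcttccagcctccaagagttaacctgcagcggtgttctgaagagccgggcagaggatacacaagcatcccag

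The upstream start of Sphk1 has a TATA box whose first base lies 31 bases before the start. This was the only TATA box among the 15 promoters of the members, and 13.6% of all 32851 promoters of this length hold one. Start 2 of Sphk1 has an AP-1 site 50 bases before it, which start 3 shares, and Asah2 has one 74 bases before its start. AP-1 sites were in 3 of the 15 promoters, against 5.20% of all promoters. Start 4 of Sphk1 has an E-box 95 bases before it, which start 5 shares. E-boxes were in 5 of the 15 promoters, of 4 members, against 7.15% of all promoters. GC boxes were found in 6 of the 15 promoters, of 5 members, Sphk2, Sgpl1, Sgpp2, Cers2 and Smpd1, against 35.7% of all promoters. None of the 5 Sphk1 promoters and not the Asah2 promoter holds these letters. The share of G and C was 56.0% and 58.0% in the promoters of Sphk1 at the upstream start and start 2, 66.0% in that of Sphk2 and 49.3% in that of Asah2, with a median of 52.7% over all promoters. Reads were counted per gene, so which start the transcripts came from was not measured.

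On the scale of TPM, which takes gene length into account, the levels of the members spread over more than 2 orders of magnitude, and their order was much the same in every mouse. Sgpp2, an S1P phosphatase of the endoplasmic reticulum, stood highest with 121 ± 19.5 TPM (mean ± SD, n = 12 libraries), above Asah1, the acid ceramidase of lysosomes, with 83.1 ± 6.99 TPM in 12 of 12 libraries. Cers2, the synthase of very-long-chain ceramides, had 73.9 ± 6.41 TPM, and Sphk2, the kinase found in the nucleus and at mitochondria, 67.3 ± 7.19 TPM. Cers6, the synthase of ceramides with palmitoyl chains, had 58.7 ± 9.96 TPM and Sgpl1, the S1P lyase, 52.3 ± 5.94 TPM. Asah1, Cers2 and Sphk2 were each above the next gene in 10 of 12 libraries and Cers6 was above Sgpl1 in 9. The ranges of these neighbours overlapped, and this stretch of the order did not hold in every library. Smpd1, the acid sphingomyelinase, followed with 27.9 ± 3.14 TPM, and Sgpp1, the other S1P phosphatase, with 23.3 ± 1.96 TPM, below it in 12 of 12 libraries. Asah2 had 5.39 ± 1.10 TPM. Sphk1, the kinase of the cytoplasm, was lowest in all 12 libraries with 0.254 ± 0.190 TPM. The ranges of Sgpl1 and Smpd1, of Sgpp1 and Asah2, and of Asah2 and Sphk1 did not overlap.

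**Figure D1:**
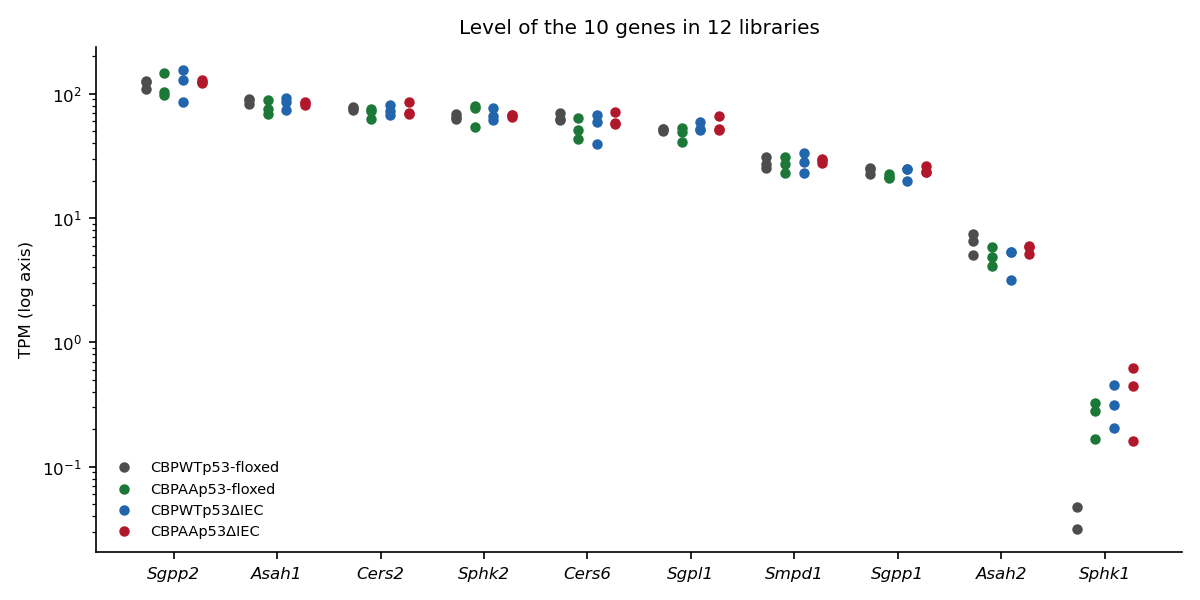
TPM on a log axis of the 10 genes, ordered by their mean, in the 12 libraries, each point a library coloured by group. The colours of the 4 groups mix for 9 genes, with Sgpp2 highest at 86.2 to 155 TPM, while Sphk1 stays at or below 0.622 TPM and the CBPWTp53-floxed library with 0 reads is not drawn.

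Sphk1 (ENSMUSG00000061878) lies on the plus strand of chromosome 11 of GRCm38 from 116530925 to 116536674, 46.9 Mb from Trp53. It was counted with 1, 0 and 1 reads in the CBPWTp53-floxed libraries, with 4, 10 and 8 in CBPAAp53-floxed, with 11, 9 and 5 in CBPWTp53ΔIEC and with 16, 4 and 12 in CBPAAp53ΔIEC libraries. All CBPWTp53-floxed libraries were below all others, and the other 3 groups overlapped one another. In the library with 0 reads, CBPWTp53-floxed replicate 2, the limit that a count of 0 allows, 3 reads, is 0.177 CPM (counts scaled to library size). Summed over mice, the rate of Sphk1 reads was 0.0437 CPM in CBPWTp53-floxed, 0.507 CPM in CBPAAp53-floxed, 0.608 CPM in CBPWTp53ΔIEC and 0.765 CPM in CBPAAp53ΔIEC crypts. In crypts, fewer cells with the transcript and less transcript per cell cannot be told apart. The antisense gene Gm29292 shares 4.02% of the exon bases of Sphk1 and had 0 reads in all libraries.

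**Figure D2:**
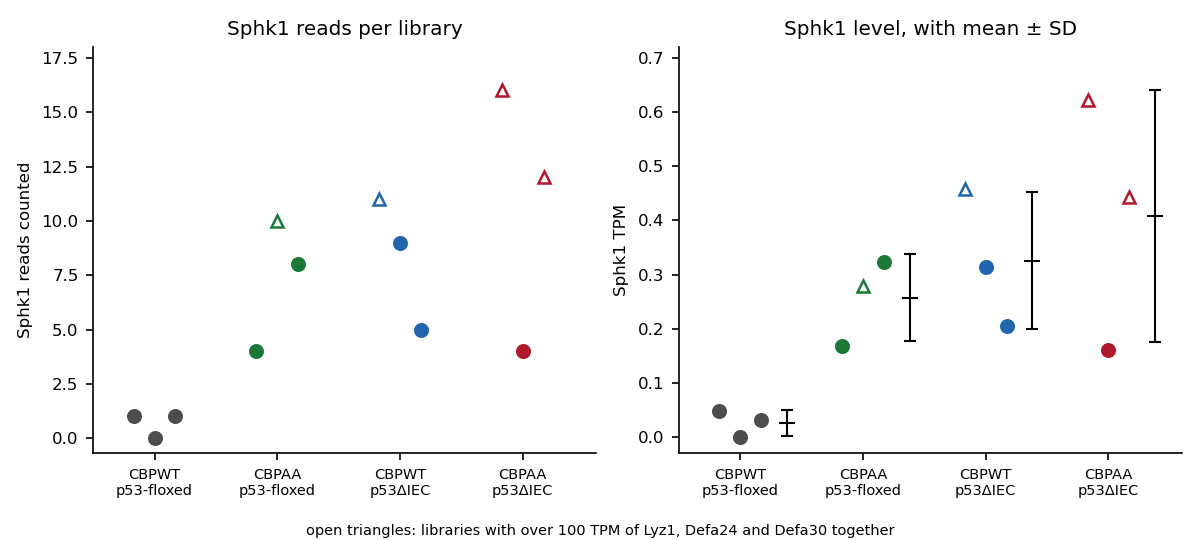
Sphk1 reads counted per library (left) and its TPM (right), each symbol 1 mouse, bars the mean ± SD of 3 mice, open triangles the 4 libraries with over 100 TPM of Lyz1, Defa24 and Defa30. The CBPWTp53-floxed libraries have at most 1 read, and the highest library of every other group is an open triangle in reads.

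The contrast on which Sphk1 was selected is p53 deletion in CBP-WT crypts. Sphk1 had 25 reads in the 3 CBPWTp53ΔIEC libraries and 2 in the 3 CBPWTp53-floxed libraries, a ratio of CPM of 13.9 with a 95% exact interval of 3.47 to 121 that covers counting error only. Without CBPWTp53ΔIEC replicate 1, the library with the most Paneth cell transcripts, the ratio was 10.9 (2.50 to 98.9). The fitted log2 fold change of 3.59 ± 0.87 (SE) rests on a group near 0 and is no bound. A gene was called where its adjusted p was under 0.05 and its log2 fold change beyond 0.5 in either direction. Of the 10 members 1, Sphk1, was called, where 3.15% of the 14610 genes tested were, and 2, Sphk1 and Asah2, had an unadjusted p under 0.05, as did 20.9% of all genes. All 10 members passed the filter on low counts. Sphk1 did so only through CBPWTp53ΔIEC replicate 1 and CBPAAp53ΔIEC replicates 1 and 3, at 0.94, 1.15 and 0.818 CPM. These libraries all had Paneth cell transcripts, and no other library was above 0.657 CPM. The call was lost in DESeq2, which gave Sphk1 no adjusted p, with the replicate block, and when any CBPWTp53-floxed or CBPWTp53ΔIEC library or CBPAAp53-floxed replicate 3 was left out. The proliferation genes Mki67, Top2a, Ccnb1, Cdk1, Mcm2 and Pcna together had 122 to 140 TPM in CBPWTp53-floxed and 181, 387 and 376 TPM in CBPWTp53ΔIEC libraries, while the Sphk1 level of the latter was 0.457, 0.315 and 0.205 TPM. Their part in the result was not tested.

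The same deletion in CBP-AA crypts shares no library with that contrast and asks whether Sphk1 also differs in mice that its selection did not use. Its edgeR test depends on the filter, which Sphk1 passed in part through the high CBPAAp53ΔIEC replicates 1 and 3. The exact permutation test given below does not use the filter. The Sphk1 level was 0.168, 0.279 and 0.324 TPM in CBPAAp53-floxed and 0.622, 0.161 and 0.442 TPM in CBPAAp53ΔIEC mice. The lowest CBPAAp53ΔIEC mouse was below all 3 p53-floxed mice, so the groups overlapped. The log2 fold change was 0.51 ± 0.57 (SE), and edgeR gave an adjusted p of 0.718 after Benjamini-Hochberg correction, while the exact permutation test of TPM gave p = 0.4 (two-sided, n = 3 and 3), where 0.1 is the smallest p that 3 against 3 mice allow. The ratio of summed reads was 1.51, with an interval of 0.850 to 2.73. It was 0.637 (0.150 to 2.101) without the libraries with Paneth cell transcripts, which leaves 4 reads in the single CBPAAp53ΔIEC replicate 2. The 2 CBPAAp53ΔIEC mice with more Sphk1, replicates 1 and 3, were those with Paneth cell and other small-intestinal transcripts. The part of these transcripts in the result was not tested. The proliferation genes summed to 163, 113 and 126 TPM in the CBPAAp53-floxed and to 307, 307 and 136 TPM in the CBPAAp53ΔIEC libraries, and their part in the result was not tested. For Sphk1 the difference between the effects, the interaction, was -3.08 ± 1.08 on the log2 scale and is a description, because it holds the contrast of the selection.

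Between genotypes of CBP, Sphk1 had 22 reads in CBPAAp53-floxed against 2 in CBPWTp53-floxed libraries, a ratio of CPM of 11.6 (2.86 to 102), and 10.9 (2.42 to 99.8) without CBPAAp53-floxed replicate 2. This comparison uses the same CBPWTp53-floxed libraries as the selection and is no independent view of them. In p53ΔIEC crypts the ratio of CBP-AA over CBP-WT was 1.26 (0.723 to 2.22), and the groups overlapped. Without the 4 libraries it was 0.633 (0.152 to 2.02), from 4 reads in 1 CBPAAp53ΔIEC and 14 in 2 CBPWTp53ΔIEC mice, so its direction turned and both intervals hold 1.

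Sphk2 (ENSMUSG00000057342, chromosome 7, 45709467 to 45718002) carried nearly all kinase transcripts. Its level was 63.0, 64.4 and 68.4 TPM in CBPWTp53-floxed, 79.0, 76.2 and 53.7 TPM in CBPAAp53-floxed, 65.7, 60.9 and 76.9 TPM in CBPWTp53ΔIEC and 67.3, 65.1 and 67.1 TPM in CBPAAp53ΔIEC libraries. The 4 groups overlapped, and the widest spread was within CBPAAp53-floxed mice. Of the summed TPM of both kinases, Sphk1 took 0% to 0.916% per library, with a mean of 0.0406% ± 0.0382 (SD, n = 3) in CBPWTp53-floxed and 0.606% ± 0.337 (SD, n = 3) in CBPAAp53ΔIEC mice. With p53 deletion in CBP-AA crypts Sphk2 had a log2 fold change of -0.19 ± 0.12 (SE, adjusted p = 0.507 from edgeR), and -0.15 ± 0.13 without the 4 libraries. Exons of Dbp, a clock output gene, and of Rpl18 on the other strand share 13.0% and 8.97% of its exon bases, and whether the counting used strand is not stated, so its counts are uncertain there. Dbp had 31 to 784 reads per library, fewest in CBPWTp53ΔIEC replicate 2 and most in CBPAAp53-floxed replicate 2, where Sphk2 had 1517 and 2380 reads.

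Of the members, Sgpl1, Sgpp1 and Sgpp2 remove S1P, and none of the 3 was called in any of the 5 contrasts. For Sgpl1 (chromosome 10, 61098642 to 61147703), the libraries had 49.9, 51.7 and 51.8 TPM in CBPWTp53-floxed, 53.3, 49.5 and 40.6 TPM in CBPAAp53-floxed, 52.1, 51.1 and 59.6 TPM in CBPWTp53ΔIEC and 51.0, 51.5 and 65.7 TPM in CBPAAp53ΔIEC mice. Its log2 fold change with p53 deletion in CBP-AA crypts was 0.11 ± 0.13 (SE). It was 0.00 without the 4 libraries and -0.05 without CBPAAp53ΔIEC replicate 3, the highest library, alone. The 2 phosphatases differed about 5-fold from each other in level, and neither had a group apart from the other 3. Sgpp2 (chromosome 1, 78310345 to 78420289) ranged from 86.2 TPM in CBPWTp53ΔIEC replicate 1 to 155 TPM in replicate 3 of the same group, so that its spread within 1 group spanned all libraries. Farsb on the other strand shares 6.20% of its exon bases. Sgpp1 (chromosome 12, 75714249 to 75735729) ranged from 19.8 to 26.4 TPM, with a log2 fold change of 0.03 ± 0.11 (SE) in CBP-AA crypts. In TPM, the 3 CBPAAp53ΔIEC mice, at 23.2 to 26.4, were above the 3 CBPAAp53-floxed mice, at 20.9 to 22.7, which gave the smallest p of the exact permutation test, 0.1. The mean TPM of every member but Sphk2 was higher in CBPAAp53ΔIEC mice, so a rise in TPM was not particular to Sgpp1.

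Of the ceramidases, the lysosomal Asah1 (chromosome 8, 41340197 to 41374773) had 68.7 to 91.6 TPM and log2 fold changes between -0.05 and 0.00 in all 5 contrasts. Asah2 (chromosome 19, 31982597 to 32108211) varied more. It had 5.04, 6.56 and 7.44 TPM in CBPWTp53-floxed, 5.80, 4.10 and 4.88 TPM in CBPAAp53-floxed, 3.17, 5.34 and 5.37 TPM in CBPWTp53ΔIEC and 5.14, 5.92 and 5.90 TPM in CBPAAp53ΔIEC libraries. The lowest was CBPWTp53ΔIEC replicate 1, the library with the most Paneth cell transcripts, and all groups overlapped. The log2 fold change with p53 deletion was 0.07 ± 0.16 (SE, adjusted p = 0.861) in CBP-AA and -0.44 ± 0.16 (SE) in CBP-WT crypts, the contrast of the selection. Without the 4 libraries these were 0.01 ± 0.17 and -0.34 ± 0.13. The interaction was 0.51 ± 0.22 (SE), with an adjusted p of 0.482 from edgeR. It was 0.35 ± 0.21 without the 4 libraries. Both values hold the contrast of the selection and are given as a description.

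The ceramide synthases were dominated by the 2 members. Of the summed TPM of Cers1 to Cers6, Cers2 took 44.6% ± 3.62 and Cers6 35.1% ± 3.55 (SD, n = 12 libraries), and Cers1 was at 0 reads in every library. For Cers2 (chromosome 3, 95314791 to 95323599), the range was 62.4 to 86.1 TPM and the log2 fold changes lay between -0.03 and 0.00. It was -0.17 in CBP-AA crypts without CBPAAp53ΔIEC replicate 3, and exons of Setdb1 and 6330562C20Rik on the other strand share 2.04% and 3.92% of its exon bases. Cers6 (chromosome 2, 68861441 to 69114282) had 61.4, 63.0 and 70.4 TPM in CBPWTp53-floxed, 63.6, 42.8 and 51.0 TPM in CBPAAp53-floxed, 39.5, 58.5 and 67.6 TPM in CBPWTp53ΔIEC and 58.5, 70.6 and 57.1 TPM in CBPAAp53ΔIEC mice. The lowest 2 libraries, CBPWTp53ΔIEC replicate 1 and CBPAAp53-floxed replicate 2, were among those with Paneth cell transcripts, and they had the smallest shares of Cers6, 28.6% and 28.7%. The part of Paneth cell and other small-intestinal transcripts in this was not tested. With p53 deletion in CBP-AA crypts, Cers6 had a log2 fold change of 0.11 ± 0.13 (SE, adjusted p = 0.725), and 0.16 ± 0.11 without the 4 libraries. Smpd1 (chromosome 7, 105554360 to 105558389) had 22.8 to 33.1 TPM and log2 fold changes between -0.06 and 0.08.

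**Figure D3:**
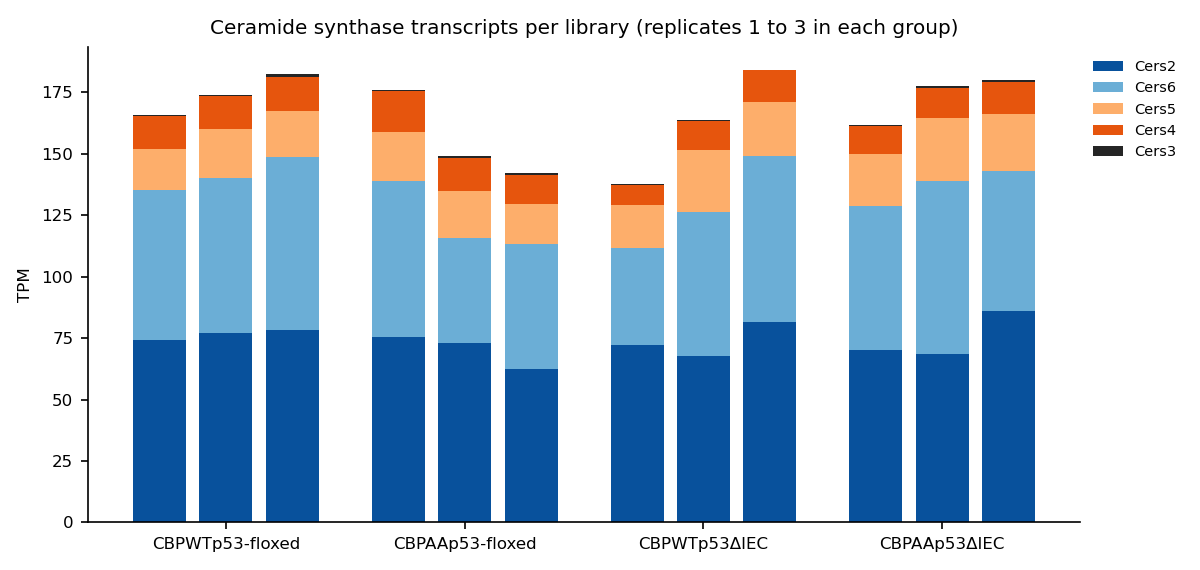
Stacked TPM of the ceramide synthase genes in each library, replicates 1 to 3 from left to right in each group, with Cers1 at 0 and not drawn. Cers2 and Cers6 make up most of every bar, and the Cers6 part is smallest in CBPWTp53ΔIEC replicate 1 (39.5 TPM).

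Over all 10 members, p53 deletion in CBP-AA crypts called 0 genes in the edgeR quasi-likelihood test, where 0.0274% of all genes were called, and 0 had an unadjusted p under 0.05, where 12.6% of all genes did. DESeq2 also called 0, where 73 of 13457 genes were called. The median log2 fold change of the members was 0.01, as over all genes tested (0.01), and the 9 members other than Sphk1 lay between -0.19 and 0.11 with standard errors of 0.09 to 0.16. CBP-AA against CBP-WT called 0 members in p53-floxed crypts, with 0% of all genes called, and 1 member, Sphk1, had an unadjusted p under 0.05, against 8.04% of all genes. In p53ΔIEC crypts, where the CBPWTp53ΔIEC libraries of the selection serve as controls, 0 members were called and 0 had an unadjusted p under 0.05, against 0.00684% and 3.57% of all genes. The interaction called 0 members against 0.00684% of all genes, and 2, Sphk1 and Asah2, had an unadjusted p under 0.05 against 10.3%. DESeq2 called 0 members in each of these 3 contrasts as well. Over all genes it called 33 of 27137 in p53-floxed crypts, 1 of 27137 in p53ΔIEC crypts and 30 of 14509 in the interaction. Without the 4 libraries, edgeR called 0 of the 9 members that could be tested in each of the 5 contrasts, and Sphk1 did not pass the filter. A p that misses the cutoff does not show equal levels. After correction over all genes, changes of several standard errors could go uncalled in these mice. The log2 fold change of S1pr2, a gene read below, was 1.02 ± 0.25 (SE) in CBP-AA crypts. Its adjusted p was 0.320 from edgeR.

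**Figure D4:**
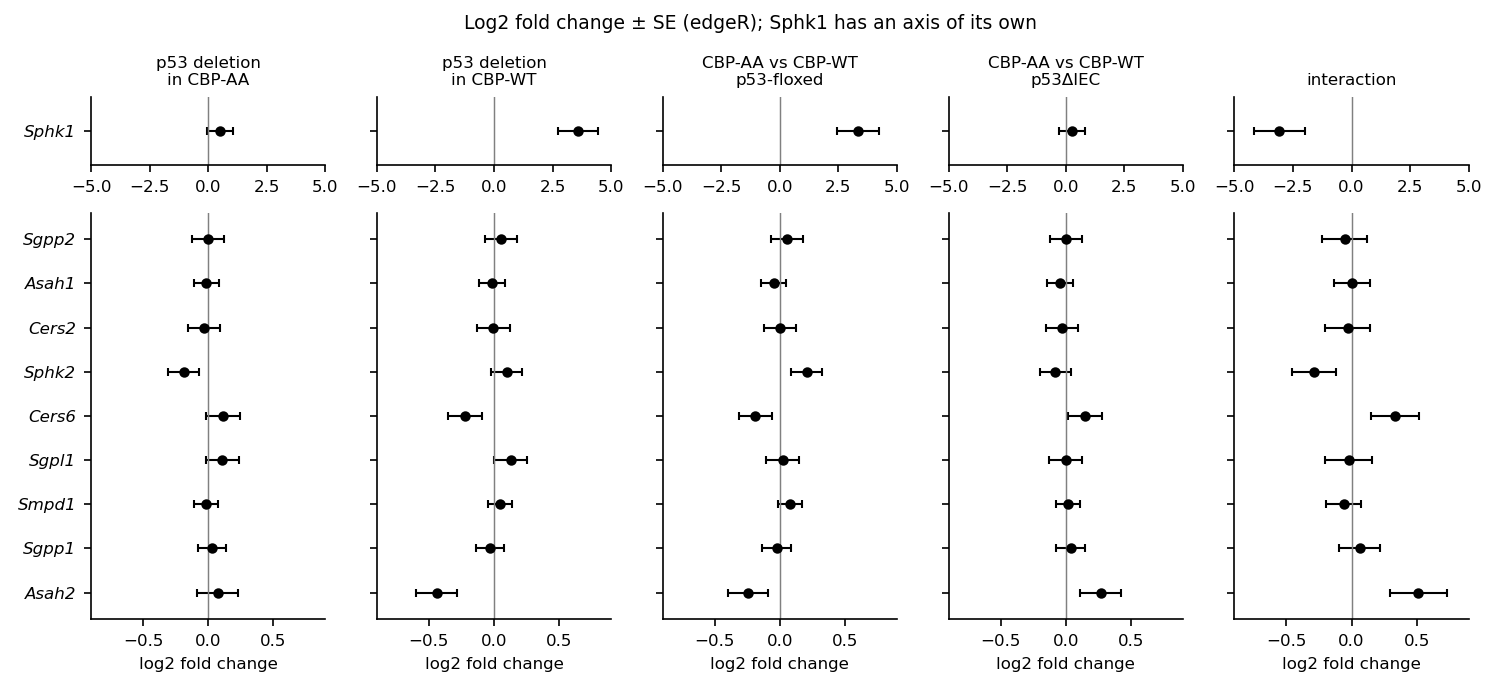
Log2 fold change ± SE of each member in the 5 contrasts (edgeR, 12 libraries), with Sphk1 on an axis of its own. The 9 other members lie within 0.51 of 0 throughout, and Sphk1 is beyond 3 in size in the 3 contrasts that use the CBPWTp53-floxed libraries, with at most 1 read.

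The other 64 genes of sphingolipid metabolism and S1P signalling were read in the same fits, and 57 of them passed the filter on low counts. With p53 deletion in CBP-AA crypts 0 of the 57 were called, against 0.0274% of all genes, and 6 had an unadjusted p under 0.05, against 12.6% of all genes, with a median log2 fold change of -0.01 against 0.01 over all genes. Both CBP comparisons and the interaction also called 0 of them. S1pr2, an S1P receptor, was the only 1 of 5 S1P receptors that passed the filter. It had 23, 30 and 17 reads in CBPAAp53-floxed and 51, 42 and 50 reads in CBPAAp53ΔIEC libraries. Its log2 fold change was 1.02 ± 0.25 (SE, adjusted p = 0.320 from edgeR and 0.103 from DESeq2), the largest among the 57 genes, and 0.90 ± 0.40 without the 4 libraries. In CBP-WT crypts it had 19, 38 and 36 reads without and 25, 62 and 36 reads with the deletion, a log2 fold change of 0.54 ± 0.25 (SE), or 0.66 ± 0.28 without the 4 libraries. The other 4 receptors had between 5 and 22 reads in all 12 libraries together.

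Plpp1, a lipid phosphate phosphatase of the cell surface that can dephosphorylate S1P, was the 1 of 57 pathway genes called in p53 deletion in CBP-WT crypts, where 3.15% of all genes were called, and 12 of the 57 had an unadjusted p under 0.05, against 20.9% of all genes. Its level was 34.8, 31.9 and 34.9 TPM in CBPWTp53-floxed and 41.6, 52.3 and 49.4 TPM in CBPWTp53ΔIEC mice. The log2 fold change was 0.53 ± 0.12 (SE) in this contrast, which the selection used, and 0.50 ± 0.11 without the 4 libraries. The call was lost with the replicate block and when any 1 of the 6 CBPWTp53-floxed and CBPWTp53ΔIEC libraries was left out. In CBP-AA crypts the log2 fold change was 0.15 ± 0.12 (SE, adjusted p = 0.612), or 0.13 ± 0.15 without the 4 libraries. In TPM, 1 of the 3 CBPAAp53ΔIEC mice lay within the p53-floxed range. Mtrex on the other strand shares 25.8% of its exon bases. The alkaline ceramidases Acer1, Acer2 and Acer3 all passed the filter. Acer1 was above the member Asah1 in mean TPM in each group, at 94.8 ± 9.96 (SD, n = 3) in CBPAAp53ΔIEC mice, while Acer2 and Acer3 stood near Asah2, at 5.79 ± 0.862 and 3.82 ± 0.0799 TPM. Exons of AC073683.1 share 14.1% of those of Acer1. The log2 fold changes of the 3 genes with p53 deletion in CBP-AA crypts were 0.07, 0.20 and -0.07, each within 1.5 standard errors, and without the 4 libraries 0.24, -0.11 and -0.21, none of them called. Smpd5, a mitochondria-associated sphingomyelinase gene, had the third largest change by size, -0.53 ± 0.74 (SE), or -1.14 ± 1.04 without the 4 libraries, from 2 to 14 reads per library in CBP-AA crypts, and Oplah shares 13.8% of its exon bases.

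Gla, the lysosomal alpha-galactosidase A, and Smpdl3a, an acid sphingomyelinase-like phosphodiesterase, were called when the 4 libraries were left out and not with all 12. Calls over all genes also rose when the 4 libraries were left out, so these calls are not particular to Gla and Smpdl3a. Gla had 9.11, 10.7 and 9.06 TPM in CBPAAp53-floxed and 19.5, 18.04 and 10.6 TPM in CBPAAp53ΔIEC mice, and its log2 fold change was 0.59 ± 0.24 (SE, adjusted p = 0.366). Without the 4 libraries it was 0.84 ± 0.18 (adjusted p = 0.00755 from edgeR), with 1 CBPAAp53ΔIEC mouse left, which was assumed to vary like the other groups. Smpdl3a had 324, 264 and 259 TPM in CBPAAp53-floxed and 205, 185 and 299 TPM in CBPAAp53ΔIEC mice, and its log2 fold change of -0.42 ± 0.22 (adjusted p = 0.441) became -0.79 ± 0.13 (adjusted p = 0.00128 from edgeR) without them. In CBP-WT crypts the changes without them were 0.85 ± 0.13 for Gla and -0.85 ± 0.09 for Smpdl3a. Smpdl3a was named after its values were seen. CBPAAp53ΔIEC replicate 3, which had the p53-floxed levels of Gla and Smpdl3a, also had a proliferation sum of 136 TPM, against 307 and 307 TPM in the other 2 mice of its group. The part of either in these values was not tested.

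**Figure D5:**
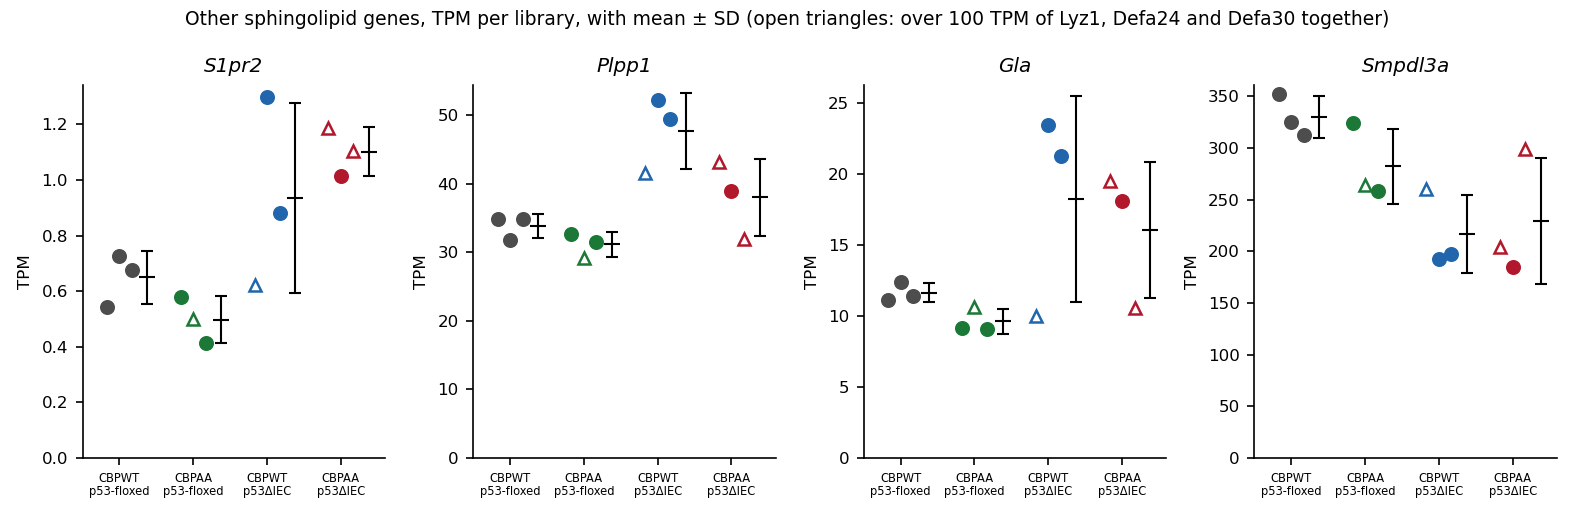
TPM of S1pr2, Plpp1, Gla and Smpdl3a in each mouse, with mean ± SD of 3 mice per group and open triangles for the 4 libraries with Paneth cell transcripts. S1pr2 is at 1.01 to 1.19 TPM in CBPAAp53ΔIEC and at 0.412 to 0.580 TPM in CBPAAp53-floxed mice, while for Gla 1 open triangle of each p53ΔIEC group lies at or below p53-floxed levels.

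The 5 tested genes whose log2 CPM followed Sphk1 most closely over the 12 libraries were Ttc39c (Pearson's r = 0.90), Tcf3 (0.90), Pld2 (0.89), Pls3 (0.88) and 9130204K15Rik (0.88). These values share libraries and depth, and they were sought among all tested genes, so they are given as a description. Among the members, r with Sphk1 ranged from -0.62 for Cers6 and -0.60 for Asah2 to 0.40 for Sgpl1, and for the kinase partner Sphk2 it was 0.29.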

How the data were processed

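RNA of colonic crypts was measured in 12 mice by RNA-seq. Per the labels, reads were trimmed with fastp 0.20.0, checked with FastQC 0.11.9, aligned to GRCm38 with HISAT2 2.1.0, sorted with SAMtools 1.9 and counted with featureCounts of Subread 2.0.1 from stranded TruSeq libraries, and the strand setting of the counting is not given in the sources used here. The authors deposited raw counts and TPM per gene and library. Columns with the results of comparisons made by the authors (fold changes, p-values) were not used. Reads shared by related or overlapping genes can move a count. Groups were taken from the labels.

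Counts were tested with edgeR 4.0.16 in R 4.3.3 (filterByExpr with a minimum count of 10, TMM, robust quasi-likelihood fit of 4 groups over all 12 libraries, Benjamini-Hochberg over 14610 genes), and a gene was called where the adjusted p was under 0.05 and the log2 fold change beyond 0.5 in either direction. Standard errors are the log2 fold change over the root of F. The p-values measure the spread between mice of 1 preparation each. DESeq2 1.42.0, its size factors, other filters, a replicate block, 2-group fits and left-out libraries were alternatives, and a fit without the 4 libraries with over 100 TPM of 3 Paneth cell genes was added after the values were seen. Read ratios have exact conditional 95% intervals. The fits were tested on simulated data. Genes named were the 10 members, other pathway genes that were called, the 3 largest changes in CBP-AA crypts, S1P receptors and ceramidases past the filter, and the 5 genes most like Sphk1. Members and lists were chosen with earlier results of these data known. Positions and overlaps are those of GENCODE M21 (GRCm38).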

Additional observations from a re-analysis of the deposited data

How the results depend on the processing

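The count of members called stayed at 0 under each alternative run in p53 deletion in CBP-AA crypts, in both comparisons of CBP genotype and in the interaction, the 12 fits with 1 library left out included. In p53 deletion in CBP-WT crypts, where 1 member was called, the count was 0 with DESeq2 on all 12 samples, with the replicate block, and in 3 settings in which Sphk1 did not pass the filter and was not tested: at least 10 counts in every sample, the groups of the contrast only, and without the 4 libraries with Paneth cell transcripts. It was between 0 and 1 with 1 library left out. Where Sphk1 was tested, the cause was not tested. The count of pathway genes called there was 0 with the replicate block, 3 without the 4 libraries, and between 0 and 2 with 1 library left out, 2 without CBPWTp53ΔIEC replicate 1 (Gla and Smpdl3a). It was 2 in place of 0 in CBP-AA crypts without the 4 libraries. The ratio of Sphk1 reads in CBP-WT crypts was 10.9 without the 4 libraries. The fitted change of Sphk1 in CBP-AA crypts lay between 0.10 (without CBPAAp53ΔIEC replicate 1) and 0.88 (without replicate 2) with 1 library left out, and was not called in any fit that could test it. Over all alternatives, 908 fitted changes of members stayed within 1 standard error or kept their call, 10 of uncalled members moved further, and the 9 that lost a call were those of Sphk1 in CBP-WT crypts. Deviations of same-numbered mice correlated with r between -0.53 and 0.55 over 18 pairs, 3 of them above 0.1. For mice with different numbers, r lay between -0.66 and 0.64. These values did not show a pairing by replicate number and cannot exclude one. Calls over all genes, 460 in CBP-WT and 4 in CBP-AA crypts, became 32 and 2 with the replicate block, 863 and 73 with DESeq2, 723 and 1 with the groups of the contrast only, 1729 and 1053 without the 4 libraries, and 1 to 906 and 1 to 326 with 1 library left out. With no filter on low counts, 11 were called in CBP-AA crypts. The fit without the 4 libraries was chosen after seeing the data. Few Sphk1 reads limit every statement on this gene.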
